A study of Mus musculus with 15 samples.

Results

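The growth hormone and IGF1 axis was followed in the liver through 10 genes of the 16809 in the deposited table, chosen by gene symbol: the receptor Ghr, its kinase Jak2, the transcription factors Stat5a and Stat5b, the circulating ligand Igf1 and its carriers Igfals, Igfbp2 and Igfbp3, and the feedback inhibitors Socs2 and Cish. All 10 were among the 12658 genes with enough counts to be tested. The study sequenced liver RNA of wild-type (WT) mice fed for 6 weeks, with 3 libraries in each of 5 groups. The quercetin, myricetin and kaempferol groups received 200, 75 and 100 mg/kg/day of these flavonols by oral gavage on a high-fat diet, taken to be the diet of the model because its composition is not stated for them. The model group ate a mixture of standard feed (78.8%), sodium cholate (0.2%), cholesterol (1%), lard (10%) and powdered egg yolk (10%), and the control group ate standard feed alone. The labels name neither sex, strain, age nor hour of collection, and give no statement on whether each library is a separate mouse, so p-values measure only a spread over libraries, which may be technical.

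Growth hormone from the pituitary reaches hepatocytes, where its receptor activates the bound kinase JAK2. JAK2 phosphorylates STAT5A and STAT5B, which enter the nucleus as dimers and drive transcription of Igf1, Igfals, Socs2 and Cish. IGF1 leaves the liver and circulates mostly in a complex with IGFBP3 and the acid-labile subunit encoded by Igfals. SOCS2 and CIS, the product of Cish, damp the signal at the receptor. In rodents the secretion pattern of growth hormone differs between the sexes and sets the sex-biased genes of the liver through STAT5B. Transcript levels do not report STAT5 phosphorylation.

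Libraries held 15.9 to 17.6 M expected counts over 14601 to 14919 genes with a count, and albumin took 4.28% to 7.86% of the counts. The hepatocyte markers, of which 19 of 20 were tested, summed to 98600 to 149000 CPM per library. Levels below are CPM, counts scaled to library size with TMM factors, or the authors' TPM where genes are set beside each other. Changes are log2 fold changes ± SE from edgeR's quasi-likelihood test over all 15 libraries, and a gene passed at a Benjamini-Hochberg adjusted p under 0.05 over all genes tested. The comparisons of the 3 flavonols with the model share the same 3 model libraries, so their values are given side by side. Because the doses of the flavonols differ, the flavonols were not compared with each other. In bulk liver RNA, fewer cells of a type and less RNA per cell cannot be told apart.

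Stat5a and Stat5b are neighbours on chromosome 11 of GRCm38.p6 that point away from each other, Stat5b at 100780731 to 100859004 on the minus strand and Stat5a at 100859351 to 100885169 on the plus strand, with 346 bases between them. Their coding sequences are 90.8% identical over 2294 aligned bases, with an identical run of 324 bases. The 80 bases below, bases 541 to 620 of each coding sequence in GENCODE M21 transcripts, show how alike the copies are, and capitals mark the single position at which they differ.
Stat5a: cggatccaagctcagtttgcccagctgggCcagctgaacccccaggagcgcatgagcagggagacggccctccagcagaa
Stat5b: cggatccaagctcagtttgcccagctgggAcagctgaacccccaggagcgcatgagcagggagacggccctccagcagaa
A read inside such a stretch cannot always be given to 1 gene. Of all 50-base windows in the transcripts, 8.21% of those of Stat5a and 11% of those of Stat5b occur in the other gene. The deposited expected counts were whole numbers in 1 of 15 libraries for Stat5a and for Stat5b, against 15 of 15 for each of the other 8 genes, so the authors' counting divided reads between Stat5a and Stat5b and their single values are uncertain in part. Whether counting used strand is not stated in the sources used here.

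The letters to which STAT5 dimers bind, TTCNNNGAA, read the same on both strands and were searched in the 250 bases before each annotated start of the genes, in the RefSeq promoter table of GRCm38.p6. That table held 9 of the 10 genes, all but Socs2. The motif stood in windows of Igfals, on the plus strand of chromosome 17, and in none of the windows of the other 8 genes. The only windows of Cish and Igf1 overlapped exons of their own gene over all 250 bases. So did the window of Igfals start 3, which lacked the motif. The windows of Stat5a, Stat5b and Igfbp3 also lay inside the gene spans, as did the start 2 windows of Igfals, Ghr and Igfbp2. A window without the motif therefore does not show that a gene's promoters lack it. Over all genes in the table, 8.13% had a window with the motif. The first sequence below, chr17:24877981-24878214, lies inside the Igfals gene span, before an Igfals start, and has the motif 58 bases before that start. The second, chr17:24877598-24877627, has it 236 bases before another start. Capitals mark the motif, and both are shown because Igfals, a hepatocyte gene known to respond to growth hormone, was the carrier whose CPM lay below the model in all 9 flavonol libraries.
Igfals start 2: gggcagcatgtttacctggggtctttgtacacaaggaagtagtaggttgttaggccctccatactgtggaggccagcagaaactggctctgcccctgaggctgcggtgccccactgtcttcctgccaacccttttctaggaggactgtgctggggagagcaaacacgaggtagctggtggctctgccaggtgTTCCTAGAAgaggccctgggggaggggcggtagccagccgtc
Igfals start 1: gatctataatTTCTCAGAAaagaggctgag
A match describes the letters alone. Growth hormone response elements far from a start, as known for Igf1, lie outside these windows.

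Set beside each other per length, the 10 genes covered a wide range of levels. Igfbp2, whose protein binds IGF1 in small complexes, was the most abundant, with group means of 564 ± 108 TPM with quercetin, 511 ± 155 TPM with myricetin, 512 ± 182 TPM with kaempferol, 344 ± 41.8 TPM in the model and 481 ± 89 TPM in the control (SD, n = 3 each). Ghr followed with group means from 213 to 255 TPM, then Igf1 with 57.8 to 75.9 TPM and Igfals with 53.1 to 68.9 TPM. Stat5b, at 15.6 to 23.2 TPM, lay above Stat5a, at 4.67 to 8.07 TPM, in every group. Igfbp3, Socs2 and Jak2 had group means between 3.63 and 15 TPM. Cish had the widest range, with group means of 7.46 TPM with kaempferol and 6.55 TPM with quercetin, against 0.65 TPM in the model.

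**Figure D1:**
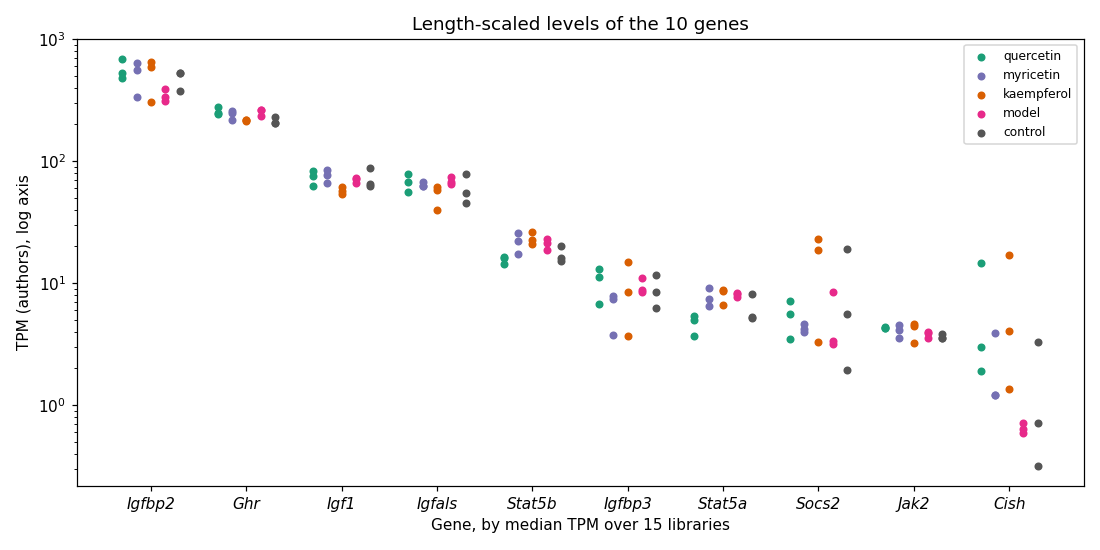
TPM of the 10 genes in the 15 libraries on a log axis, with genes ordered by their median over libraries and coloured by group, each point 1 library. Igfbp2 and Ghr lie highest, Cish lies lowest, and Socs2 and Cish spread most within groups.

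Among the 5 groups, an F test in the edgeR fit passed for Stat5a (edgeR adjusted p = 0.00188) and Stat5b (edgeR adjusted p = 0.0186), and for 16.1% of all genes tested. Without quercetin replicate 2 or quercetin replicate 5, 1 of these genes passed. The other 8 genes had edgeR adjusted p-values from 0.151 for Ghr to 0.843 for Jak2. Spread between libraries differed greatly along the axis. The biological coefficient of variation, the spread between libraries of a group relative to the level, was 0.107 for Jak2, 0.114 for Ghr and 0.125 for Igf1, against 0.648 for Socs2 and 0.91 for Cish. At that spread a change had to be far larger to pass in Socs2 and Cish than in the genes above them in the pathway.

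**Figure D2:**
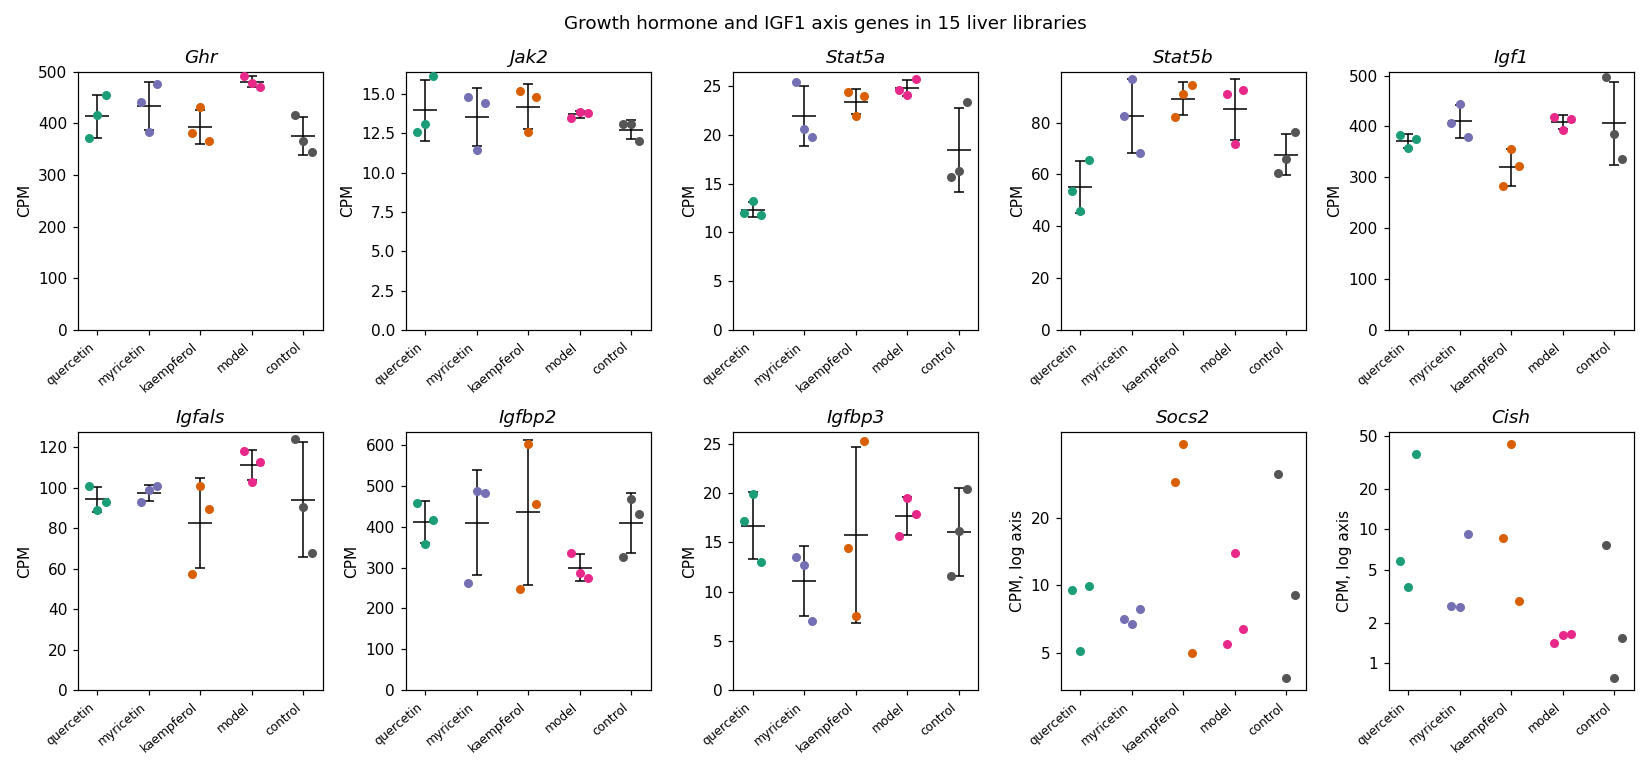
CPM of each gene by group, each point 1 library, with the group mean and SD as horizontal line and bars. Axes start at 0 except for Socs2 and Cish, which are on a log axis without mean and SD. The 3 quercetin libraries of Stat5a lie at 11.8 to 13.2 CPM, below all 12 other libraries.

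Neither the receptor nor its kinase passed by edgeR in any comparison. Ghr had 492, 479 and 472 CPM in the model, against 417, 366 and 345 CPM in the control. All 3 model libraries lay above the control libraries, and the log2 fold change was 0.35 ± 0.11 (edgeR adjusted p = 0.0816), which missed the threshold. It passed without control replicate 1 (edgeR adjusted p = 0.0462), with library totals in place of TMM factors (adjusted p = 0.0458) and with DESeq2 (adjusted p = 0.0323), and the q value in the authors' deposited table was 0.025.

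Under the flavonols, Ghr had 372, 416 and 455 CPM with quercetin, 442, 384 and 477 CPM with myricetin, and 382, 431 and 366 CPM with kaempferol. The quercetin and kaempferol libraries all lay below the 3 model libraries, while 1 myricetin library lay among them. The log2 fold changes were -0.22 ± 0.11 with quercetin (edgeR adjusted p = 0.265), -0.15 ± 0.11 with myricetin (edgeR adjusted p = 0.663) and -0.29 ± 0.11 with kaempferol (edgeR adjusted p = 0.304). The 95% interval with kaempferol, -0.53 to -0.05, did not reach 0 before adjustment. In TPM the order with quercetin differed, at 243 to 276 TPM against 235 to 262 TPM in the model, so the separation of Ghr with quercetin depends on the scaling between libraries. In kaempferol livers it held in TPM too, at 214 to 217 TPM against 235 to 262 TPM in the model.

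Jak2, the receptor-bound kinase, had 12.6, 13.1 and 16.2 CPM with quercetin, 14.8, 11.5 and 14.4 CPM with myricetin, 15.2, 12.6 and 14.8 CPM with kaempferol, 13.5, 13.8 and 13.8 CPM in the model, and 13.1, 13.1 and 12.1 CPM in the control. The flavonol groups overlapped the model, and their log2 fold changes lay between -0.02 and 0.05. The widest 95% interval among them ran from -0.29 to 0.26, with myricetin. In the model against the control Jak2 was at 0.11 ± 0.13 (edgeR adjusted p = 0.678), although the CPM ranges did not overlap.

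Stat5a and Stat5b fell with quercetin, the 2 of the 10 genes that passed in this comparison, in which 7.82% of all genes tested passed in either direction and 3.76% as lower. Stat5a had 12.0, 13.2 and 11.8 CPM in quercetin livers, against 24.6, 24.1 and 25.8 CPM in model livers. Every quercetin library lay below every model library and also below the control libraries, at 15.7, 16.3 and 23.4 CPM. In TPM the quercetin livers, at 3.67 to 5.39, stayed below the model, at 7.73 to 8.35, but overlapped the control, at 5.14 to 8.18. The position of Stat5a below the control therefore depends on the scaling between libraries. The log2 fold change against the model was -1.01 ± 0.14, with a 95% interval from -1.31 to -0.71 (edgeR adjusted p = 0.000545), and Stat5a ranked 47 by p among 12658 genes. It passed whichever of the 6 libraries was left out, with edgeR adjusted p-values up to 0.00327.

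Stat5b, the more abundant copy and the one most tied to growth hormone in mouse liver, had 53.6, 45.9 and 65.7 CPM in quercetin livers, against 91.1, 71.7 and 92.7 CPM in model livers. The groups did not overlap, with model replicate 2 and quercetin replicate 8 nearest to each other. Its log2 fold change was -0.63 ± 0.15, with a 95% interval from -0.95 to -0.31 (edgeR adjusted p = 0.0181). Leaving out 1 library kept the change between -0.78 and -0.52 but cost the call in 4 of 6 fits. Without model replicate 1 the log2 fold change was -0.58 (edgeR adjusted p = 0.0756), without model replicate 5 it was -0.58 (0.0627), without quercetin replicate 2 it was -0.61 (0.0543) and without quercetin replicate 5 it was -0.52 (0.0785). With the replicate number from the titles as a block it was -0.69 (edgeR adjusted p = 0.0751). In TPM the separation held, at 14.3 to 16.5 TPM against 18.7 to 23 TPM in the model.

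Since reads were divided between the copies, their expected counts were also summed, an analysis chosen after the data were seen. The sum was 67.4 ± 9.26 CPM in quercetin livers and 110 ± 12.4 CPM in model livers (SD, n = 3 each), a log2 fold change of -0.71 ± 0.13 (edgeR adjusted p = 0.00476). This sum does not depend on how reads were shared out between Stat5a and Stat5b. In the authors' deposited table, the log2 fold change with quercetin was -1.02 for Stat5a (q = 2.17e-08) and -0.64 for Stat5b (q = 0.00355).

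With the other flavonols neither copy passed, in comparisons where 0.395% of all genes tested passed with myricetin and 0.0395% with kaempferol. Stat5a had 25.5, 20.6 and 19.8 CPM with myricetin and 24.3, 21.9 and 24.0 CPM with kaempferol, and both groups overlapped the model. The log2 fold changes of Stat5a were -0.18 ± 0.14 with myricetin (95% interval -0.47 to 0.11) and -0.08 ± 0.14 with kaempferol (-0.38 to 0.21). Stat5b had 82.6, 97.0 and 68.2 CPM with myricetin and 82.2, 91.0 and 94.6 CPM with kaempferol, with log2 fold changes of -0.04 ± 0.15 (95% interval -0.36 to 0.27) and 0.07 ± 0.15 (-0.25 to 0.38). At 75 mg/kg/day of myricetin and 100 mg/kg/day of kaempferol, the Stat5a intervals do not hold -1.01 and the Stat5b intervals do not hold -0.63. Those were the estimates at 200 mg/kg/day of quercetin, which serve as a yardstick only and are uncertain themselves. The Stat5b interval with quercetin, -0.95 to -0.31, overlapped that with myricetin. The doses differ, the comparisons share the model libraries, and no contrast between flavonols was fitted, so a difference between flavonols was not tested.

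In the model against the control neither copy passed. Stat5a averaged 24.8 ± 0.831 CPM in the model and 18.4 ± 4.27 CPM in the control (SD, n = 3 each), and the ranges did not overlap, with control replicate 3 at 23.4 CPM near the model. The log2 fold change was 0.43 ± 0.14 (edgeR adjusted p = 0.0862), and it was 0.64 without control replicate 3 (edgeR adjusted p = 0.0312). Stat5b averaged 85.2 ± 11.7 CPM in the model and 67.6 ± 7.93 CPM in the control, with overlapping ranges and a log2 fold change of 0.33 ± 0.15 (edgeR adjusted p = 0.207).

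Other gene groups moved in the same quercetin libraries, where 7.82% of all genes tested passed in either direction. Of 20 genes that are higher in male mouse liver under pulsatile growth hormone, 6 fell and 0 rose with quercetin. Elovl3, a fatty acid elongase, changed by -3.17 ± 0.43 and C6, a complement component, by -0.84 ± 0.15 on the log2 scale (edgeR adjusted p = 0.00164 and 0.00291). The list's median log2 fold change was -0.48, against 0.01 over all genes tested. The mean log2(CPM + 1) of this list was 8.01, 8.30 and 9.14 in the quercetin libraries 2, 5 and 8, against 9.42 to 9.49 in the model. In the control it was 9.07 to 9.26, a range that holds quercetin library 8. For 10 tested genes that are higher in females, the mean log2(CPM + 1) was 1.84 to 2.67 with quercetin and 1.17 to 1.4 in the model. In the control it was 1.95 to 2.38, so quercetin overlapped the control and the model lay below both. The list's median in the model against the control was -0.65. With quercetin against the model 2 rose and 0 fell, with a median of 1.81. These were Abcd2, a peroxisomal fatty acid transporter, at 2.35 ± 0.51 (edgeR adjusted p = 0.0158), and Cyp4a14, a fatty acid hydroxylase also known to answer to fasting and PPARA, at 4.95 ± 1.34 (edgeR adjusted p = 0.0494). Abcd2 had 22.8, 9.21 and 5.97 CPM in the quercetin libraries, against 2.45, 3.43 and 1.51 CPM in the model. In the control it had 5.07, 8.37 and 8.32 CPM, which overlapped quercetin. Without quercetin replicate 2 the log2 fold change of Abcd2 against the model was 1.61. It missed the threshold without model replicate 1 (edgeR adjusted p = 0.0659) or model replicate 5 (0.0627), and Cyp4a14 missed it whichever of the 6 libraries was left out, with edgeR adjusted p-values from 0.0505 to 0.149.

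Of 19 clock genes tested, whose transcripts depend on the hour, 7 rose and 6 fell with quercetin, and the mean log2(CPM + 1) of the list was 4.79 to 4.95 in quercetin livers against 4.19 to 4.35 in the model. Arntl, which encodes the activator BMAL1, changed by -3.43 ± 0.28 and Cry1, a repressor, by -2.83 ± 0.23 (edgeR adjusted p = 1.62e-05 for each). With myricetin 3 clock genes rose and 2 fell, with kaempferol 0 rose and 1 fell, and in the model against the control 1 rose and 0 fell. Over all genes tested, 7.82% passed with quercetin, 0.395% with myricetin, 0.0395% with kaempferol and 4.46% in the model against the control. Ribosomal protein genes also rose with quercetin against the model, 14 of 30, and in the model against the control 6 of 30 fell. Their mean log2(CPM + 1) was 7.66 to 7.94 with quercetin, 7.39 to 7.43 in the model and 7.7 to 7.78 in the control. The 19 hepatocyte markers tested had 0 genes passing with quercetin by edgeR, and their summed level was 123000 to 140000 CPM in quercetin livers against 104000 to 128000 CPM in model livers. The part of the clock, ribosomal and sex-biased genes in the change of Stat5a and Stat5b was not tested, and the labels do not give the hour of collection.

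**Figure D3:**
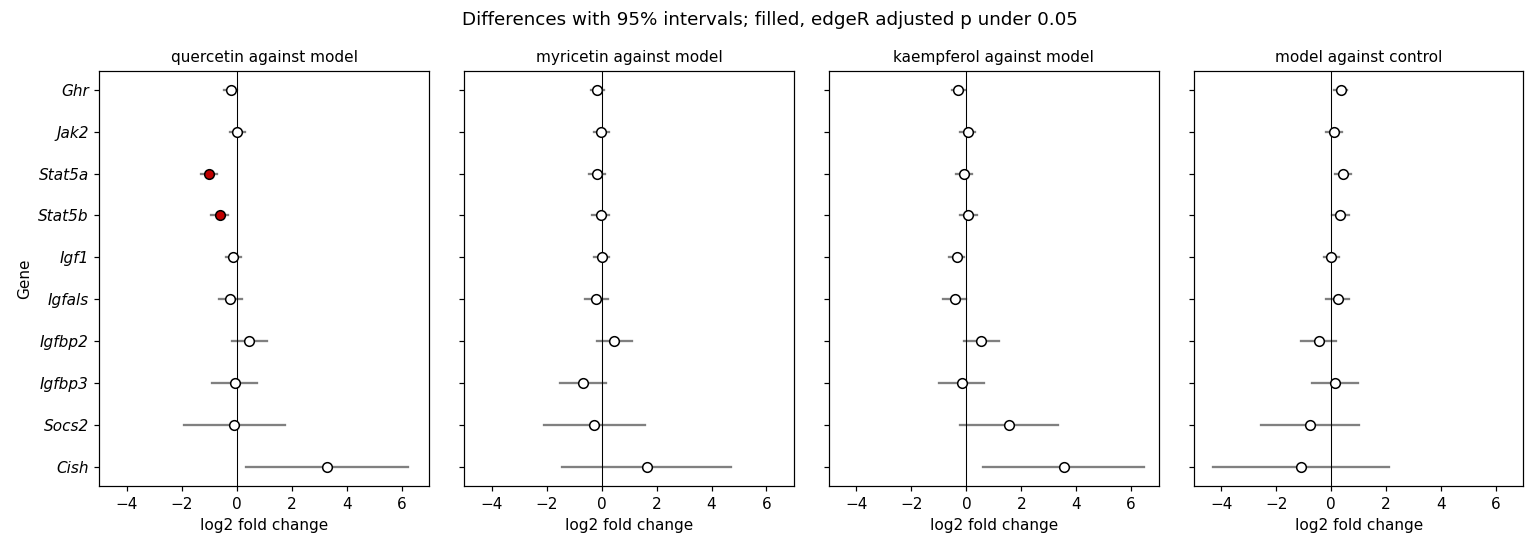
Log2 fold changes of the 10 genes in each comparison with 95% intervals as bars, filled points having an edgeR adjusted p under 0.05. Stat5a and Stat5b with quercetin are the 2 filled points, and the intervals of Socs2 and Cish are the widest.

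Igf1, the hormone through which growth hormone promotes growth, stayed among the most abundant of the 10 genes in every group. It had 383, 357 and 376 CPM with quercetin, 406, 444 and 379 CPM with myricetin, 282, 355 and 322 CPM with kaempferol, 418, 392 and 415 CPM in the model, and 497, 386 and 336 CPM in the control. The 3 control libraries were spread more widely than those of any other group and contained the model range. In that comparison the log2 fold change was 0.01 ± 0.13 (95% interval -0.26 to 0.28), which excludes a change of the mean by as much as that of Stat5a with quercetin.

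With kaempferol, all 3 Igf1 libraries lay below the model. The log2 fold change was -0.35 ± 0.13, with a 95% interval from -0.62 to -0.08 (edgeR adjusted p = 0.263). The authors' deposited table gave -0.361 (q = 0.0827). In TPM, kaempferol livers had 54.1 to 62.0 and model livers 66.5 to 73.4, which did not overlap either. Other lists stood apart in the same livers. Macrophage markers summed to 566, 559 and 1170 CPM in kaempferol replicates 3, 5 and 8, against 327 to 467 CPM in the model. Lymphocyte markers summed to 27.3 to 39.3 CPM, against 15.5 to 25 CPM. Of the 19 macrophage and 13 lymphocyte markers tested, 0 passed with kaempferol by edgeR. The mean log2(CPM + 1) of the clock list was 3.67 to 4.03 with kaempferol, against 4.19 to 4.35 in the model. Their part in the levels of Igf1, Ghr and Igfals was not tested. The quercetin libraries also lay below the model in CPM, at -0.13 ± 0.13 (edgeR adjusted p = 0.572), but the direction turned with library totals alone (0.01), and in TPM the groups overlapped. With myricetin the log2 fold change was 0.01 ± 0.13 (95% interval -0.27 to 0.28). The 95% interval of Igf1 with quercetin was -0.41 to 0.14, against -1.31 to -0.71 for Stat5a.

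Igfals, which encodes the acid-labile subunit, had 101, 88.8 and 93.1 CPM with quercetin, 92.7, 98.8 and 101 CPM with myricetin, 57.5, 101 and 89.2 CPM with kaempferol, 118, 103 and 113 CPM in the model, and 124, 90.5 and 67.5 CPM in the control. All 9 flavonol libraries lay below the 3 model libraries that serve all 3 comparisons, and the control libraries lay on both sides of the model. The log2 fold changes were -0.24 ± 0.20 with quercetin, -0.19 ± 0.20 with myricetin and -0.43 ± 0.20 with kaempferol, with edgeR adjusted p-values of 0.509, 0.763 and 0.419. In TPM the quercetin and myricetin groups overlapped the model, while kaempferol had 39.5 to 61.8 TPM against 64.7 to 74.4 TPM.

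Igfbp2, a carrier whose liver transcript is known to rise in fasting and to fall in insulin excess and obesity, ran the other way from Igfals in its means. Quercetin livers had 459, 358 and 417 CPM, against 337, 287 and 274 CPM in model livers. The ranges did not overlap, and the log2 fold change was 0.46 ± 0.29 (edgeR adjusted p = 0.376). The authors' deposited table called this change, at 0.448 (q = 0.0258). Myricetin livers had 262, 488 and 482 CPM and kaempferol livers 249, 603 and 456 CPM, each with 1 library below the whole model range and 2 above it. Their log2 fold changes were 0.45 ± 0.29 and 0.54 ± 0.29 (edgeR adjusted p = 0.59 and 0.521). In the control Igfbp2 had 327, 469 and 431 CPM, and the model stood at -0.45 ± 0.29 against it (edgeR adjusted p = 0.401), which the authors' deposited table called at -0.441 (q = 0.0474).

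Igfbp3, the main carrier in blood and in rat liver known as a product of non-parenchymal cells, had 17.2, 19.9 and 13 CPM with quercetin, 13.5, 12.7 and 7.01 CPM with myricetin, 14.4, 7.51 and 25.3 CPM with kaempferol, 15.6, 19.5 and 17.9 CPM in the model, and 11.5, 16.2 and 20.4 CPM in the control. The myricetin group alone lay apart from the model, with a log2 fold change of -0.68 ± 0.38 (edgeR adjusted p = 0.524). Kaempferol libraries lay both below and above the model. Endothelial markers, a list of 18, had 0 genes passing with myricetin by edgeR, and their summed level was 391 to 470 CPM in myricetin livers against 308 to 397 CPM in model livers. Stellate cell markers, of which 15 were tested, also had 0 genes passing, and summed to 440, 254 and 236 CPM in myricetin replicates 5, 7 and 8, against 379 to 419 CPM in the model. In kaempferol replicates 3, 5 and 8, where Igfbp3 was lowest in replicate 5, they summed to 474, 280 and 452 CPM. The part of cell makeup in the level of Igfbp3 was not tested.

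The feedback inhibitors, which in mouse liver respond within hours to a pulse of growth hormone, differed between libraries of the same group. Cish, encoding CIS, had 5.78, 3.72 and 36.6 CPM with quercetin, 2.69, 2.65 and 9.31 CPM with myricetin, 8.69, 43.5 and 2.90 CPM with kaempferol, 1.41, 1.63 and 1.65 CPM in the model, and 7.67, 0.773 and 1.55 CPM in the control. All 9 flavonol libraries lay above the 3 model libraries, but the control ran from below the model to above it. These CPM rest on few reads at the low end, with 683 expected counts in kaempferol replicate 5 and 12 in control replicate 2.

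The means of Cish were 15.4 ± 18.4 CPM with quercetin, 4.88 ± 3.83 CPM with myricetin, 18.4 ± 22.0 CPM with kaempferol and 1.56 ± 0.133 CPM in the model (SD, n = 3 each). The log2 fold changes were 3.28 ± 1.33 with quercetin (95% interval 0.34 to 6.22), 1.64 ± 1.39 with myricetin (-1.43 to 4.72) and 3.54 ± 1.33 with kaempferol (0.60 to 6.48). None passed, with edgeR adjusted p-values of 0.169, 0.707 and 0.318. One library in each group carried much of the mean: the log2 fold change was 1.60 without quercetin replicate 8, 0.77 without myricetin replicate 8 and 1.88 without kaempferol replicate 5. By contrast with edgeR, the authors' deposited table called Cish in all 3 comparisons, at 3.29 (q = 0.0186), 1.64 (q = 0.0133) and 3.56 (q = 0.0399), and DESeq2 run on the deposited counts called it with quercetin (adjusted p = 0.0353). In the model against the control it was -1.09 ± 1.45, and 0.42 without control replicate 1.

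Socs2, the other inhibitor, had 9.56, 5.11 and 9.91 CPM with quercetin, 7.09, 6.75 and 7.87 CPM with myricetin, 28.8, 42.7 and 5.00 CPM with kaempferol, 5.51, 14 and 6.39 CPM in the model, and 31.4, 3.86 and 9.07 CPM in the control. Every flavonol group overlapped the model. Kaempferol replicates 3 and 5 and control replicate 1 stood above the other 12 libraries. The log2 fold change with kaempferol was 1.55 ± 0.81 (95% interval -0.23 to 3.33; edgeR adjusted p = 0.506), and those with quercetin and myricetin were -0.09 ± 0.83 and -0.26 ± 0.84. Against the control, the model was at -0.77 ± 0.81 (edgeR adjusted p = 0.631), and at 0.42 without control replicate 1. The 3 libraries with the highest Socs2 were also among the 5 with the highest Cish, but quercetin replicate 8 had 36.6 CPM of Cish with 9.91 CPM of Socs2.

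**Figure D4:**
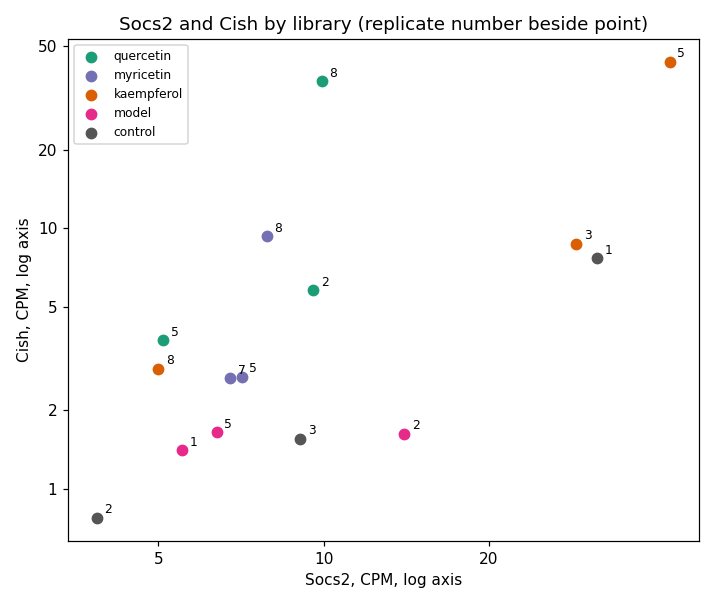
Cish against Socs2 in CPM, both on log axes, each point 1 library coloured by group with its replicate number beside it. Kaempferol replicate 5 is highest in both, the 3 model libraries hold 1.41 to 1.65 CPM of Cish, and libraries of 1 group lie far apart.

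Counted together, 0 of the 10 genes passed in the model against the control by edgeR, where 4.46% of all genes tested passed, with 3 at an unadjusted p under 0.05 (21.7% of all genes tested) and 1 passing by DESeq2 (8.03% of genes with an adjusted p). Against the model, 2 passed with quercetin, 0 with myricetin and 0 with kaempferol. At an unadjusted edgeR p under 0.05 there were 3 with quercetin (23.1% of all genes tested), 0 with myricetin (11.9%) and 4 with kaempferol (11.7%). DESeq2 called 3 with quercetin (10.1% of genes with an adjusted p), 0 with myricetin (1.86%) and 0 with kaempferol (1.47%). CPM ranges did not overlap for 7 of the 10 with quercetin (29.7% of all genes tested), 3 with myricetin (18.8%), 4 with kaempferol (18.9%) and 3 in the model against the control (30%). The authors' deposited table had a q under 0.05 for 4 of the 10 with quercetin (5.95% of all genes with a q), 1 with myricetin (1.73%), 1 with kaempferol (1.73%) and 2 in the model against the control (6.28%). CPM ranges apart with quercetin were those of Igfbp2 and Cish on the higher side (15.4% of all genes tested) and Ghr, Stat5a, Stat5b, Igf1 and Igfals on the lower side (14.2%). The median log2 fold change of the 10 genes was -0.11 with quercetin, -0.10 with myricetin, -0.02 with kaempferol and 0.12 in the model, each beside 0.01 or -0.01 over all genes.

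Further genes of growth hormone and IGF1 signalling were read from a list of 44, of which 40 were tested. In the model against the control 3 rose and 3 fell, where 4.46% of all genes tested passed. Irs2, an adaptor of the insulin and IGF1 receptors, had 46.2, 31.3 and 25.0 CPM in the model, against 8.94, 8.24 and 8.76 CPM in the control. The groups lay far apart, with a log2 fold change of 1.98 ± 0.32 (edgeR adjusted p = 0.00916), and it passed whichever library was left out. Igfbp1, a carrier that insulin represses, had 102, 32.0 and 42.9 CPM in the model, against 5.58, 9.34 and 4.04 CPM in the control, a log2 fold change of 3.22 ± 0.58 (edgeR adjusted p = 0.0162). It missed the threshold without control replicate 2 (edgeR adjusted p = 0.0541) or control replicate 3 (0.073).

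The 3 genes that fell in that comparison also missed the threshold without some libraries. Hnf4a, a hepatocyte transcription factor that works with STAT5B, had 664, 584 and 486 CPM in the model, against 864, 1150 and 843 CPM in the control, and fell by 0.72 on the log2 scale (edgeR adjusted p = 0.0144). It missed without control replicate 2 (edgeR adjusted p = 0.0803) or model replicate 5 (0.0863). Lepr, the leptin receptor, had 1.29, 1.45 and 1.65 CPM in the model, against 5.26, 11.9 and 6.96 CPM in the control, a change of -2.45 ± 0.59 (edgeR adjusted p = 0.0358). Socs3, an inhibitor of cytokine receptors, had 3.43, 6.28 and 3.69 CPM in the model, against 11.4, 10.2 and 9.75 CPM in the control, a change of -1.22 ± 0.32 (edgeR adjusted p = 0.0455). Of the 6 fits that left out 1 library, Lepr passed in 1, without control replicate 1, and Socs3 in 1, without model replicate 2, with edgeR adjusted p-values in the other 5 up to 0.136 and 0.165. Endothelial and macrophage markers also moved here, with 5 of 18 and 4 of 19 higher in the model, beside 4.46% of all genes tested passing. Their summed levels were 308 to 397 and 327 to 467 CPM in the model, against 197 to 291 and 158 to 259 CPM in the control. Hepatocyte markers, a list that holds Hnf4a, summed to 104000 to 128000 CPM in the model and 132000 to 149000 CPM in the control. Of the 19 tested, 1 fell, Hnf4a itself. The part of these lists in the changes above was not tested.

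With quercetin, 2 genes of this list rose and 1 fell, of 40 tested, where 7.82% of all genes tested passed. That count is near the share over all genes. Socs3 had 15.2, 12.0 and 29.9 CPM in quercetin livers, against 3.43, 6.28 and 3.69 CPM in model livers. All quercetin libraries lay above the model, at 2.08 ± 0.31 on the log2 scale (edgeR adjusted p = 0.00164), and it passed whichever library was left out. Cebpb, a transcription factor of the acute phase response, had 79.5, 129 and 117 CPM, against 62.8, 50 and 54.4 CPM in the model, a log2 fold change of 0.96 ± 0.25 (edgeR adjusted p = 0.0353). Of the 6 fits that left out 1 library it passed in 1, without quercetin replicate 2, with edgeR adjusted p-values in the other 5 up to 0.137. Grb10, an adaptor that inhibits the insulin and IGF1 receptors, had 2.67, 2.83 and 2.71 CPM, against 3.92, 6.11 and 6.26 CPM in the model, a log2 fold change of -0.99 ± 0.23 (edgeR adjusted p = 0.0147), and missed without model replicate 2 (0.0714) or model replicate 5 (0.0584).

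Grb10 was also the 1 gene of the list that passed with myricetin, where 0.395% of all genes tested passed. It had 2.63, 2.53 and 2.3 CPM. All lay below the model, at -1.12 ± 0.23 (edgeR adjusted p = 0.0437), and the call was lost without model replicates 2 or 5 or any myricetin library, with edgeR adjusted p-values up to 0.183. With kaempferol 0 of the 40 passed by edgeR, 8 had an unadjusted p under 0.05 (11.7% of all genes tested), and DESeq2 called 2 (1.47% of genes with an adjusted p). The list's median log2 fold change was -0.03 with quercetin, -0.02 with myricetin, 0.04 with kaempferol and -0.09 in the model against the control. DESeq2 called 5 genes of the list with quercetin (10.1% of genes with an adjusted p) and 2 with myricetin (1.86%), against 3 and 1 by edgeR.

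**Figure D5:**
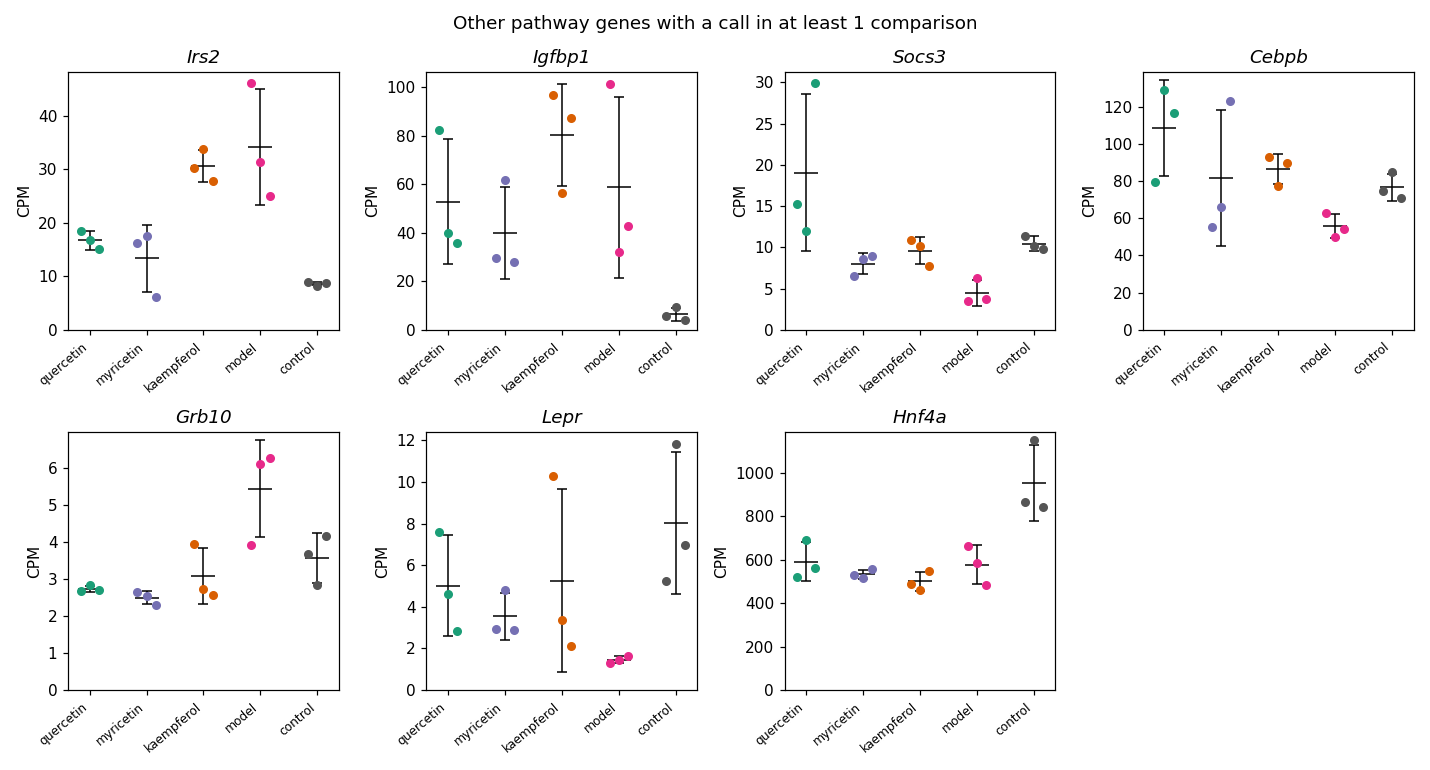
CPM of 7 other pathway genes that passed in at least 1 comparison, each point 1 library, with group mean and SD. Axes start at 0. Irs2 and Igfbp1 lie higher in the model than in the control, and Socs3 lies higher with quercetin than in the model.

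The genes whose levels over the 15 libraries were most like those of Igf1 were Fam8a1 (Pearson r = 0.78, Spearman rho = 0.68), Sepsecs (0.76 and 0.67), an enzyme that makes selenocysteinyl-tRNA, and Timd2 (0.75 and 0.70). For Cish they were Wdr45b (0.88 and 0.84), a protein of the WIPI autophagy family, Sub1 (0.87 and 0.76), a DNA-binding coactivator, and Spg21 (0.86 and 0.85). They were the highest of 9008 genes searched on log2(CPM + 1), and the points share groups, depth and scaling. Ordered by mean CPM, neighbouring groups overlapped throughout for 7 of the 10 genes, and 3 had a gap, against 26.6% of all genes tested. The gap lay between quercetin and the control for Stat5a and between myricetin and the model for Igfals, pairs that overlapped in TPM. For Igf1 it lay between the kaempferol group, at 100 mg/kg/day, and the quercetin group, at 200 mg/kg/day, and no comparison is drawn from it because the doses differ.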

How the data were processed

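Liver RNA libraries were mapped to groups by their labels, with replicate numbers from the titles. The build GRCm38.p6 and the tools RSEM 1.3.1, Bowtie2 2.3.4.3, HISAT2 2.1.0 and DESeq2 1.4.5 are named without roles in the submitters' processing notes. Per the file headers, the deposited table holds the authors' expected counts, TPM, and log2 fold changes and q values of 4 comparisons. The TPM were scaled within each library by the authors. Not used were 15 columns of FPKM. Of the deposited expected counts, 5.37% were not whole (tolerance 1e-06), and all were rounded. Gene positions come from the deposited table; Cish has another one in the RefSeq table and is given none here.

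After filterByExpr and TMM scaling, edgeR 4.0.16 in R 4.3.3 fitted all 15 libraries with its quasi-likelihood method (robust option, a mean for each group, 10 residual df), and tests were 2-sided. The common biological coefficient of variation was 0.155. Approximate SE were the size of the log2 fold change over the square root of F, and 95% intervals were built on them. The script was tested on simulated data. Alternatives were DESeq2 1.42.0, RLE factors, library totals, no filter, a filter of 1 CPM in 3 libraries, a fit without the robust option, the 2 groups alone, a replicate block and each library left out.

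The 10 genes and all lists were chosen with earlier results of these data known. Named besides them are up to 3 passing genes of the pathway list per direction and comparison by smallest p, up to 2 genes of each other list per comparison likewise, and for Igf1 and Cish the 3 genes of at least 5 mean CPM with the highest Pearson r; 1 gene that this rule takes is not reported here. 0 pairs of libraries were identical.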

Additional observations from a re-analysis of the deposited data

How the results depend on the processing

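Of 568 alternative values of the 40 changes of the 10 genes in 4 comparisons, 522 kept their direction and their side of the threshold, 5 lost the call, 5 gained it and 36 turned direction. Here "in the model" stands for the model against the control. The 5 lost calls were all of Stat5b with quercetin, without 4 of the libraries in turn and with the replicate block. Stat5a with quercetin passed in every alternative run.

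Replicate numbers are not stated to pair libraries. Deviations of same-numbered libraries correlated at -0.17 to 0.11 over at most 2 pairs per comparison. With the replicate block, genes passing fell to 236 with quercetin (990 without it), 5 with myricetin, 1 with kaempferol, 43 in the model against the control and 217 among the 5 groups. Of the 10 genes, 1 passed with quercetin and 1 among the 5 groups (Stat5a, edgeR adjusted p = 0.00637 with quercetin), and of the other pathway genes 1 in the model and 0 with myricetin. Under the block the log2 fold change turned to -0.08 for Igf1 in the model, -0.02 for Jak2 and 0.42 for Socs2 with quercetin, 0.03 for Jak2 and 0.45 for Socs2 with myricetin, and -0.02 for Jak2 and -0.05 for Stat5b with kaempferol.

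DESeq2 called 981 genes in the model against the control (565 by edgeR), 209 with myricetin (50) and 189 with kaempferol (5). It called 1 of the 10 genes in the model, and 5, 2 and 2 other pathway genes with quercetin, myricetin and kaempferol. Library totals in place of TMM factors moved the median of all genes by 0.153 with quercetin, 0.106 with myricetin and 0.075 with kaempferol. With them 1731, 77 and 10 genes passed, 1 of the 10 genes passed in the model, and 0 other pathway genes with myricetin. Stat5a with quercetin was then at -0.86 (edgeR adjusted p = 0.00437) and Stat5b at -0.49 (edgeR adjusted p = 0.0371), both farther below that median than below 0. Directions turned there for Igf1 (0 in the model, 0.01 with quercetin), Igfbp3 (0.08) and Socs2 (0.04) with quercetin, and Jak2 (0.08) and Stat5b (0.06) with myricetin. Without a filter 18 genes passed with kaempferol. A fit of the 2 groups alone gave 125 genes with myricetin, 21 with kaempferol and 7 other pathway genes with quercetin. Igf1 was at 0 with myricetin under DESeq2 and RLE factors, and at -0.01 in the model under the stricter filter. The summed Stat5 counts stood at 0.04 with kaempferol, against -0.08 for Stat5a.

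Leaving out 1 library gave 82 to 919 genes in the model against the control (565 with all, 82 without control replicate 2, 919 without control replicate 1), 429 to 788 with quercetin, 13 to 65 with myricetin, 0 to 39 with kaempferol and 1079 to 2082 among the 5 groups. Of the 10 genes 0 to 1, 1 to 2 and 1 to 2 passed in the model, with quercetin and among the 5 groups, and of other pathway genes 1 to 5 in the model, 1 to 3 with quercetin, 0 to 1 with myricetin and 0 to 1 with kaempferol. Directions that turned ranged, in the model, from -0.11 to 0.18 for Igf1, -0.05 to 0.35 for Igfbp3, -1.32 to 0.42 for Socs2 and -1.55 to 0.42 for Cish. With quercetin they ranged from -0.09 to 0.09 for Jak2, -0.23 to 0.07 for Igfbp3 and -0.33 to 0.46 for Socs2. With myricetin they ranged from -0.08 to 0.09 for Jak2, -0.17 to 0.08 for Stat5b, -0.06 to 0.06 for Igf1 and -0.50 to 0.28 for Socs2, and with kaempferol from -0.06 to 0.13 for Stat5b and -0.68 to 0.17 for Igfbp3. None of these changes had been called. The causes were not tested. Cish had 12 to 683 expected counts, and the part of counting error in its spread was not tested.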
